A study of Mus musculus with 3 samples.

Results

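The HoxB cluster is a run of transcription factor genes on mouse chromosome 11, and its genes were taken here as the rows of the count tables whose symbol is Hoxb followed by a number. They were 9 of the 16181 genes listed, Hoxb2, Hoxb3, Hoxb4, Hoxb5, Hoxb6, Hoxb7, Hoxb8, Hoxb9 and Hoxb13, and 21 further Hox genes of the other clusters were listed. Hoxb1 was not analysed here. The counts came from Drop-seq, a droplet method in which each captured RNA molecule carries a unique molecular identifier (UMI), run on the cerebella of 3 Eed cKO mice at postnatal day 7 (P7), 1 library per mouse. All 3 mice carried Math1-Cre and 2 floxed alleles of Eed (genotype Math1-Cre/Eed fl/fl). Eed encodes a core subunit of Polycomb repressive complex 2 (PRC2), and the Math1-Cre transgene uses the Atoh1 promoter, which in the cerebellum is active in cerebellar granule neuron progenitors (CGNPs). Cells of other origin in the same libraries, which the promoter does not target, served as the background, and no mouse of another genotype was analysed here, so no value compares genotypes.

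Hox genes encode homeodomain transcription factors that give segments of the body axis their identity. Their order along the chromosome follows the order of their expression along the head to tail axis, with low paralog numbers active more anteriorly and high numbers more posteriorly. The cerebellum forms from the most anterior hindbrain, in front of the region where Hox genes are normally used, and in such tissue PRC2 keeps the clusters silent by trimethylating lysine 27 of histone H3.

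In the GENCODE annotation of the GRCm38 build, all 9 genes lie on the plus strand of chromosome 11. Hoxb9 (chr11:96271457-96276595), Hoxb8 (chr11:96281905-96285315), Hoxb7 (chr11:96286623-96290162), Hoxb6 (chr11:96292476-96301569), Hoxb5 (chr11:96303336-96306121), Hoxb4 (chr11:96318267-96321638), Hoxb3 (chr11:96323326-96347930) and Hoxb2 (chr11:96350525-96354012) follow each other closely. Hoxb7 and Hoxb8 are the closest neighbours, with 1307 bp between them. Hoxb13 (chr11:96194316-96197447) stands apart, 74009 bp before Hoxb9. Antisense genes overlap Hoxb5 and Hoxb6 (Hoxb5os) and Hoxb2 and Hoxb3 (Hoxb3os), and the sources used here do not say whether reads were counted by strand, so molecules of an overlapping pair may not be told apart.

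The promoter of Hoxb8 is shown because Hoxb8 had the highest level of the 9 genes. RefSeq gives the 250 bases before its start at chr11:96281655-96281904 on the plus strand of GRCm38.p6, and of the 9 genes only Hoxb8 and Hoxb4 had an entry in the promoter table used. Capitals mark matches to TTTATG, a core word bound by CDX factors, which activate Hox genes in the trunk, and to TGATNNAT, a word for joint binding of PBX and Hox proteins, searched on both strands.
Hoxb8 promoter: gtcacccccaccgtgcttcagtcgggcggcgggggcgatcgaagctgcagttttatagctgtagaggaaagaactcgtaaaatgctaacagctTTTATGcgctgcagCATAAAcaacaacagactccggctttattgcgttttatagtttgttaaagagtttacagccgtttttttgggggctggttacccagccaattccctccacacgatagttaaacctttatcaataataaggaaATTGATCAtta
TTTATG matched 2 times, once on each strand, and TGATNNAT matched 1 time, on the minus strand. Of 32851 RefSeq promoters, 10.8% held TTTATG and 7.68% held TGATNNAT in the same window. The window had 12 CG pairs, and 33.5% of promoters had at least as many. These matches are a description of the letters only.

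Between Hoxb13 and Hoxb9 lies Mir196a-1, a microRNA gene whose product is known to cleave the Hoxb8 transcript. The mature strand is shown with its seed (bases 2 to 8) in capitals. Beside it is the best ungapped match in the Hoxb8 3′ untranslated region, where capitals mark Watson-Crick pairs, the only pairs counted here.
mmu-miR-196a-5p: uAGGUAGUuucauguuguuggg
Hoxb8 site: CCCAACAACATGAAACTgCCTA
The microRNA maps to chr11:96265187-96265208 on the plus strand. The site formed Watson-Crick pairs at 21 of 22 bases. Among 21020 genes with an annotated 3′ untranslated region, taken at its longest form, 1 reached 21, which was Hoxb8. The best sites in the other 8 HoxB genes paired at 11 to 14 bases. The remaining base of the Hoxb8 site is a G opposite a U of the seed, a G:U wobble that was not counted as a pair. Hoxb8 thus held 0 exact seed matches (ACTACCT), while Hoxb6 and Hoxb7 held 1 each, and 6.55% of all genes held at least 1. Neither this microRNA nor its activity was measured here.

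The 3 libraries held 2373 cells after filtering, 918, 547 and 908 in mice 1, 2 and 3, with a median of 919.5, 857 and 1408 UMIs per cell, so mouse 3 gave the most UMIs per cell. No barcode was shared between mice. Cells were clustered without the Hox genes and the other genes tested here, and clusters were named from marker lists. CGNP/CGN-like cells, taken as granule neuron progenitors and young granule neurons (CGNs), are called granule-lineage cells here and numbered 1169, of which 653 were proliferating and 516 differentiating. Myoid-like cells, which express skeletal muscle genes, numbered 81. The 937 cells of types that do not arise from the Atoh1 lineage are called non-lineage cells here. A cluster of 186 cells, led by Syt4, Pcp4 and Calb1, met 4 markers of differentiating CGNs and 4 of Purkinje cells and stayed unnamed. It came mostly from mouse 3, with 44, 12 and 130 cells. Eed itself was at 22.3 ± 8.06 CPM (UMIs per 1e+06 UMIs of the same cells, mean ± SD, n = 3 mice) in granule-lineage cells and 65 ± 17.5 CPM in non-lineage cells (log2 fold change -1.40, SE 0.38, edgeR adjusted p = 0.019). Drop-seq reads the 3′ end of a transcript, and whether that end lies in the deleted part is not given in the sources used here, so this level is a limited check of the deletion.

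HoxB transcripts were found in granule-lineage cells and in the unnamed cluster, and were rare in non-lineage cells. The 9 genes together gave 761 UMIs, of which 594 fell in the 1169 granule-lineage cells (398 CPM with mice pooled), 135 in the 186 cells of the unnamed cluster (458 CPM), 10 in the 81 myoid-like cells (67.0 CPM) and 22 in the 937 non-lineage cells (19.2 CPM). The unnamed cluster counts on neither side of the comparisons unless stated. At least 1 HoxB UMI was found in 326 of 1169 granule-lineage cells (27.9%, exact binomial 95% interval 25.3 to 30.6). The shares in mice 1, 2 and 3 were 25.7%, 22.6% and 37.0%. Outside the lineage 19 of 937 cells had one (2.03%, 1.23 to 3.15), and the shares in the 3 mice were 2.25%, 1.27% and 2.12%. Granule-lineage and non-lineage cells did not overlap, and their depths were close, at a median of 1029 and 965 UMIs per cell. When every cell was thinned to 500 UMIs, 18.6% and 1.07% remained. Intervals and limits here cover counting error only.

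The share differed with the stage of the granule lineage. A HoxB UMI was present in 89 of 653 proliferating cells (13.6%, 11.1 to 16.5) and in 237 of 516 differentiating cells (45.9%, 41.6 to 50.3). It was 10.3% to 18.6% in proliferating cells and 39.3% to 54.2% in differentiating cells over the 3 mice. Proliferating cells were the deeper stage, with a median of 1163 UMIs against 896.5, and after thinning the shares were 7.20% and 32.9%. UMIs of 2 or more different HoxB genes were seen in 86 differentiating and 15 proliferating cells, and the most in a single cell was 5 genes. Of the 2 differentiating clusters, the one led by Cntn2 and Adcyap1 had a HoxB UMI in 50.7% of 337 cells (45.3 to 56.2) and the one with Mab21l2 and Barhl1 among its leading genes in 36.9% of 179 cells (29.8 to 44.4). In the unnamed cluster 68 of 186 cells had a HoxB UMI (36.6%, 29.6 to 43.9), and 16.1% after thinning.

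Outside the lineage the few HoxB UMIs were spread thinly. Oligodendrocyte lineage-like cells had them in 6 of 120 cells (5.0%, 1.86 to 10.6), astrocyte-like cells in 3 of 99, GABAergic interneuron-like cells in 9 of 341 and endothelial-like cells in 1 of 52. None was found in 201 GABAergic interneuron progenitor-like cells, which allows a share of cells with a UMI of up to 1.49% by the limit of 3 counts (1.82% by the exact interval), nor in 49 myeloid-like, 47 vascular fibroblast-like or 28 pericyte-like cells. The interneuron progenitor-like cells had a median of 1138 UMIs per cell, close to that of proliferating granule-lineage cells, which had a HoxB UMI in 13.6%.

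**Figure D1:**
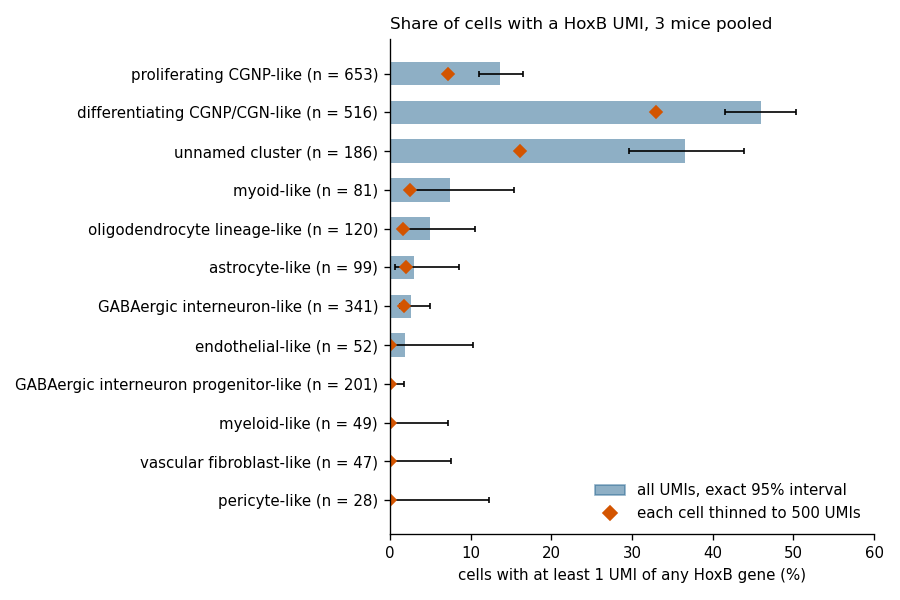
Share of cells with at least 1 UMI of any HoxB gene, in percent, for each cell group with the 3 mice pooled (bars, with exact 95% intervals) and after thinning each cell to 500 UMIs (diamonds). Differentiating granule-lineage (CGNP/CGN-like) cells stand at 45.9%, the unnamed cluster at 36.6%, myoid-like cells at 7.41% and every non-lineage group at 5.0% or below.

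Along the cluster, the level was highest at Hoxb7 and Hoxb8 and low at the next gene, Hoxb9. A UMI counts 1 molecule whatever the length of the transcript, but capture and 3′ annotation differ between genes, so the order of genes is a description of captured molecules. In granule-lineage cells the mean levels (± SD, n = 3 mice) from Hoxb2 upwards were 21.0 ± 8.10 CPM for Hoxb2, 7.52 ± 0.85 for Hoxb3, 29.8 ± 6.59 for Hoxb4, 52.2 ± 12.1 for Hoxb5 and 20.7 ± 8.46 for Hoxb6. They were 99.4 ± 11.1 CPM for Hoxb7, 121 ± 9.92 for Hoxb8, 9.58 ± 9.93 for Hoxb9 and 31.6 ± 17.7 for Hoxb13. Hoxb8 was above Hoxb7 in 3 of 3 mice, and both were above every other member in every mouse. Hoxb5 was above Hoxb4 in 3 of 3 mice. Hoxb4, with 20, 8 and 18 UMIs in mice 1, 2 and 3, was above Hoxb2 (17, 6 and 9) and Hoxb6 (13, 4 and 16) in 3 of 3 mice. The values of Hoxb13, Hoxb2 and Hoxb6 overlapped over the mice, as did those of Hoxb13 and Hoxb4.

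**Figure D2:**
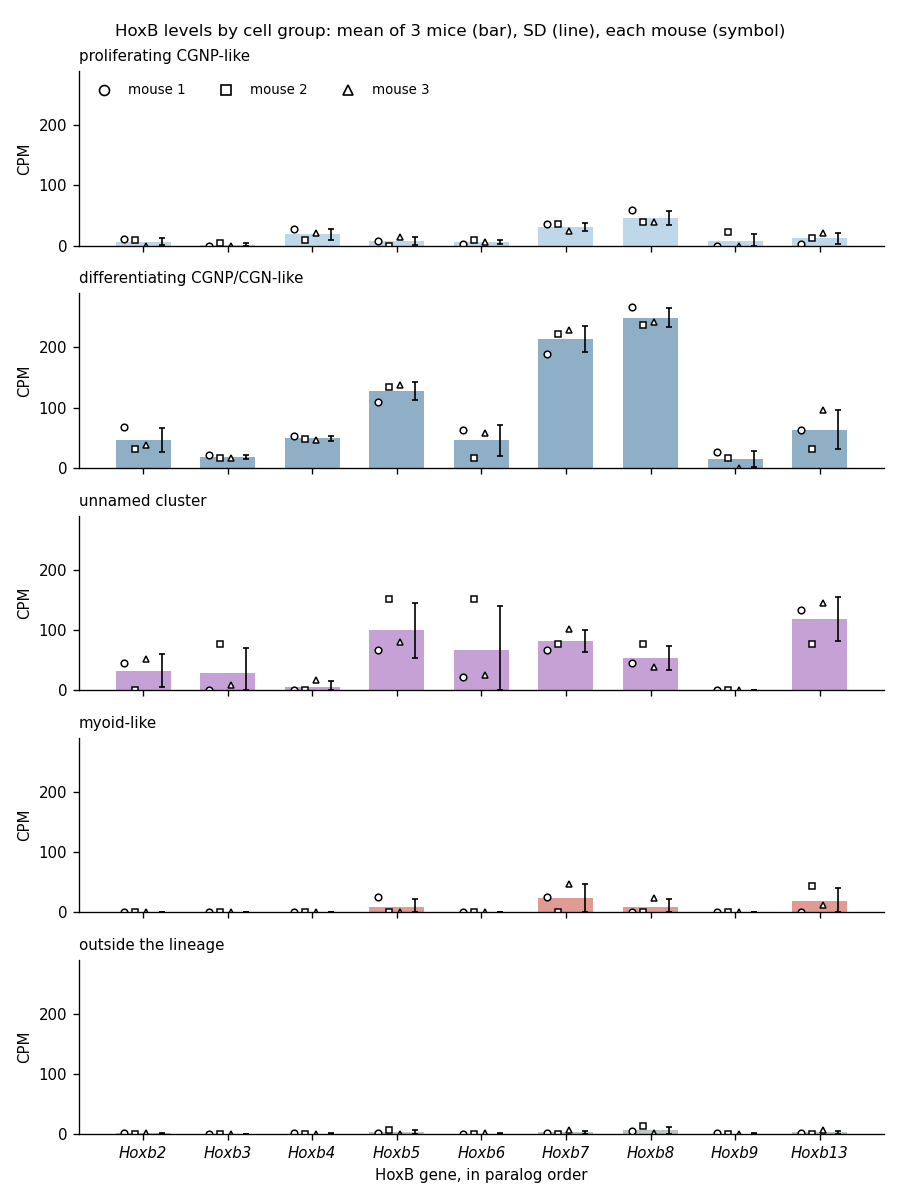
Level of each HoxB gene in CPM (vertical axis) in paralog order (horizontal axis) for 5 cell groups. Bars are the mean of 3 mice, lines the SD and symbols the mice, with Hoxb8 at 249 CPM in differentiating cells, Hoxb13 the tallest bar of the unnamed cluster at 118 CPM and no mean above 6.80 CPM in non-lineage cells, where the highest single mouse is at 13.2 CPM.

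Hoxb8, a trunk Hox gene whose loss in mice affects spinal sensory circuits and grooming, was the most abundant member. Its level in granule-lineage cells was 130.0, 110 and 123 CPM in mice 1, 2 and 3, from 73, 39 and 71 UMIs, and in non-lineage cells it was 5.61, 13.2 and 1.57 CPM, from 2, 2 and 1 UMIs. No value in non-lineage cells came near those of the granule-lineage cells. The log2 fold change was 4.68 (SE 0.44, edgeR quasi-likelihood adjusted p = 1.4e-06, higher in 3 of 3 mice), and the ratio of the summed counts was 28.1 with a counting interval of 11.8 to 87.6. A Hoxb8 UMI stood in 11.5% of the former cells (9.77 to 13.5) and in 0.53% of the latter (0.17 to 1.24).

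Hoxb7, also a trunk Hox gene and used as a marker of the nephric duct, followed the same pattern. It was at 87.3, 102 and 109 CPM in granule-lineage cells and at 2.81, 0 and 6.27 CPM in non-lineage cells. The log2 fold change was 4.44 (SE 0.45, edgeR adjusted p = 2.7e-06), and the ratio of summed counts was 22.7 (9.52 to 71.0). Of the granule-lineage cells 9.24% held a UMI (7.64 to 11.05), and of the non-lineage cells 0.53%.

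Only 4 of the 9 genes had enough counts to enter this comparison, Hoxb4, Hoxb5, Hoxb7 and Hoxb8, and all 4 were called higher in granule-lineage cells. Over all 7580 genes tested, 4.05% were called higher, 8.80% were called lower and the median log2 fold change was 0.02. A gene with almost no counts in non-lineage cells can pass the filter only through the granule-lineage cells, so the count of 4 is not in itself a result about the cluster. Hoxb5, a paralog used at cervical to thoracic levels, was at 42.7, 48.1 and 65.8 CPM against 2.81, 6.62 and 0 (log2 fold change 4.67, SE 0.68, edgeR adjusted p = 1.1e-04). Hoxb4, which is normally expressed from the caudal hindbrain backwards, was at 35.6, 22.7 and 31.2 CPM against 1 UMI in non-lineage cells (log2 fold change 4.72, SE 0.78, edgeR adjusted p = 3.7e-04, ratio of summed counts 35.3 with a counting interval of 6.03 to 1425). Without mouse 3 the filter removed Hoxb4, so that 3 HoxB genes were tested and called, with Hoxb5 at 3.37, Hoxb7 at 5.33 and Hoxb8 at 3.85. Without mouse 1 non-lineage cells held 0 Hoxb4 UMIs, so that, against a limit of 3 counts over the group, its level was at least 7.35-fold higher. Without mouse 2 Hoxb5 was at 5.45 and Hoxb8 at 5.28. With the unnamed cluster counted among the non-lineage cells, an alternative added after seeing the data, 5 HoxB genes were tested and 4 were called, beside 3.96% of all genes called higher, with log2 fold changes of 3.33 for Hoxb8, 2.23 for Hoxb7, 1.58 for Hoxb5 and 3.08 for Hoxb4 (edgeR adjusted p = 7.1e-06 to 0.014). The fifth, Hoxb13, was not called (log2 fold change 0.21, edgeR adjusted p = 0.85). Against non-neural cells alone Hoxb5 was at 3.57, and interneurons and their progenitors held 0 Hoxb5 UMIs, against which its level was at least 10.8-fold higher. With no filter on low counts all 9 genes were tested against a background of 3.31% called higher, and 7 were called, the 4 above with Hoxb2, Hoxb6 and Hoxb13. Hoxb3 and Hoxb9 did not pass (edgeR adjusted p = 0.086 and 0.19). Hoxb3 had 11 UMIs in granule-lineage cells and 0 in non-lineage cells, where the limit of 3 counts over the group is 2.62 CPM. Its level as measured was 2.81-fold that limit, and 1.29-fold without mouse 3 and 1.98-fold without mouse 1. The counting error of the 11 UMIs is not in these values.

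HoxB transcripts were higher in differentiating than in proliferating granule-lineage cells. In differentiating cells Hoxb8 was at 267, 238 and 242 CPM in mice 1, 2 and 3, and in proliferating cells at 59.3, 39.6 and 38.5 CPM. The groups were well apart in every mouse (log2 fold change 2.42, SE 0.27, edgeR adjusted p = 1.7e-06). Hoxb7 was at 189, 222 and 230 CPM in differentiating cells and at 35.1, 35.2 and 23.7 CPM in proliferating cells (log2 fold change 2.77, SE 0.29, edgeR adjusted p = 9.8e-07). Over all differentiating cells Hoxb5 had the largest rise of the 4 genes tested, from 8.09, 0 and 14.8 CPM in proliferating cells to 110, 135 and 138 CPM in differentiating cells (log2 fold change 3.84, SE 0.48, edgeR adjusted p = 6.7e-06). Hoxb4 had the smallest, from 27.0, 8.81 and 20.7 CPM to 52.4, 47.6 and 45.9 CPM (log2 fold change 1.27, SE 0.44, edgeR adjusted p = 0.037). The call of Hoxb4 was lost without mouse 1 and without mouse 2 (log2 fold change 1.54 and 1.01, edgeR adjusted p = 0.084 and 0.19). It was also lost by DESeq2 (1.31, DESeq2 adjusted p = 0.14). The value of Hoxb5 was 4.47 without mouse 3. Of the 71 Hoxb5 UMIs of differentiating cells 64 lay in the cluster led by Cntn2 and Adcyap1, at 167, 204 and 171 CPM in mice 1, 2 and 3. In the cluster with Mab21l2 and Barhl1 among its leading genes Hoxb5 was at 14, 21.0 and 66.0 CPM, and Hoxb7 was at 42.1, 84.2 and 158 CPM there against 276, 305 and 263 CPM in the cluster led by Cntn2 and Adcyap1. Hoxb8 was at 267, 232 and 158 CPM against 268, 242 and 281 CPM. The difference between these clusters was not tested. The same 4 genes were tested here and all 4 were called, against 14.5% of 4887 genes called higher, and the rule on what the filter lets through holds here too.

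The mix of HoxB transcripts was compared between the stages, first with mice pooled. Hoxb4 made up 14.8% of the 128 HoxB UMIs of proliferating cells (exact 95% interval 9.18 to 22.2) and 5.79% of the 466 of differentiating cells (3.85 to 8.32). Hoxb5 made up 6.25% (2.74 to 11.9) and 15.2% (12.1 to 18.8). The intervals of the 2 stages did not overlap for either gene, whereas Hoxb7 (22.7% and 25.5%), Hoxb8 (34.4% and 29.8%) and every other member had overlapping intervals. By mouse, Hoxb4 made up 18.5%, 6.25% and 16.7% of the HoxB UMIs of proliferating cells and 6.10%, 6.32% and 5.31% of those of differentiating cells, so that mouse 2 (2 of 32 and 6 of 95 UMIs) showed no such difference. Hoxb5 made up 5.56%, 0% and 11.9% and then 12.8%, 17.9% and 15.9%, higher in differentiating cells in 3 of 3 mice. Hoxb4 and Hoxb5 are neighbours on the chromosome, 12145 bp apart, the widest gap between any members other than that before Hoxb13. Hoxb2 and Hoxb3, on the same side of this gap as Hoxb4, showed no such shift, and a part of the gap was not tested.

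The remaining members were too sparse for the filtered fit. With no filter on low counts, where 5.27% of 15398 genes were called higher in differentiating cells, Hoxb2 (log2 fold change 2.71, edgeR adjusted p = 6.8e-04), Hoxb3 (3.48, 0.040), Hoxb6 (3.01, 1.4e-04) and Hoxb13 (2.42, 9.4e-05) were called and Hoxb4 (1.2, 0.12) and Hoxb9 (1.06, 0.61) were not. The call of Hoxb3, which went from 1 to 10 UMIs (ratio of summed counts 16.8 with a counting interval of 2.39 to 730.1), was lost with mouse as a block (edgeR adjusted p = 0.073). Hoxb2, which patterns the fourth rhombomere of the hindbrain, went from 6 to 26 UMIs, and Hoxb6 from 5 to 28. Hoxb3os, the only listed antisense gene of the cluster, gave 23 UMIs in granule-lineage cells and 0 in non-lineage cells. With the former level taken as measured, it was at least 5.89-fold higher.

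**Figure D3:**
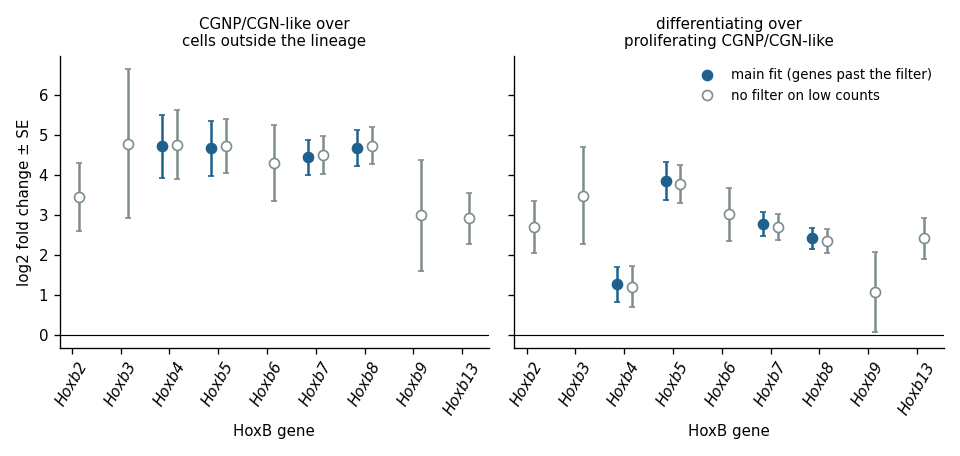
Log2 fold change (vertical axis, with its standard error) of each HoxB gene (horizontal axis) between granule-lineage cells and non-lineage cells (left) and between differentiating and proliferating cells (right), in the filtered fit (filled) and with no filter on low counts (open). On the left the 4 filled values lie between 4.44 and 4.72. On the right they spread from 1.27 for Hoxb4 to 3.84 for Hoxb5.

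Hoxb9 was low beside its neighbour Hoxb8, as Hoxb3 and Hoxb6 also were beside theirs. It lies 5309 bp from Hoxb8 and gave 13 UMIs in all cells, 6, 7 and 0 in mice 1, 2 and 3. In mouse 3, the library with the most UMIs, 0 of 1536645 UMIs over all cells allows up to 1.95 CPM, and Hoxb8 over the same cells was at 54.0 CPM. In the granule-lineage cells of that mouse the limit for Hoxb9 is 5.20 CPM, and Hoxb8 was at 123 CPM. Of its paralogs of the same number, Hoxa9 was at 237 CPM and Hoxc9 at 140 CPM in those cells, while Hoxd9 was at 19.1 CPM. Hoxd9 was below Hoxb9 in mice 1 and 2, at 1.78 and 14.2 CPM. In mice 1 and 2 Hoxb9 was at 8.90 and 19.8 CPM in granule-lineage cells, so the difference between mice rests on 12 UMIs there.

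Hoxb13, the most posterior member and in the mouse known for its use in the tail region, prostate and distal colon, differed between cell groups and mice. In granule-lineage cells it was at 23.2, 19.8 and 52.0 CPM in mice 1, 2 and 3. In the unnamed cluster, compared after its values were seen, it was at 133, 75.8 and 144 CPM, from 6, 1 and 34 UMIs. Hoxb8 was at 44.3, 75.8 and 38.1 CPM in the unnamed cluster, from 2, 1 and 9 UMIs, each value below that of the granule-lineage cells of its mouse. In mouse 2, where 3 counts over the cluster are 227 CPM, 1 UMI cannot show a difference, and mouse 1 rests on 2 UMIs. Hoxb13 made up 15.1%, 15.2% and 29.7% of the UMIs of Hoxb13 plus Hoxb8 in granule-lineage cells, and 75%, 50% and 79.1% in the unnamed cluster. The values of the 3 mice did not overlap between the groups, but the ratio was chosen after its values were seen, so that it is a description, and the value of mouse 2 in the unnamed cluster is 1 UMI against 1. Of the 41 Hoxb13 UMIs of the unnamed cluster 34 came from mouse 3, which also gave 130 of its cells. Its paralog Hoxc13 was likewise at 111, 152 and 106 CPM in the unnamed cluster, from 5, 2 and 25 UMIs, and at 12.5, 8.50 and 13.9 CPM in granule-lineage cells.

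The unnamed cluster also held transcripts of Purkinje cells, which lie outside the Atoh1 lineage. The 9 measured genes of the Purkinje list, of 10 on it, summed to 606 to 3582 CPM over the mice in this cluster, against 190 to 284 CPM in differentiating cells. Within it, the 68 cells with a HoxB UMI had 1172 CPM of these genes and the 118 cells without one had 4718 CPM. The 13 measured genes of the differentiating CGN list summed to 10804 and 7404 CPM in the same cells. Cells with a HoxB UMI were deeper, at a median of 1697.5 UMIs against 1158.5. The part of Purkinje transcripts in the HoxB levels of this cluster was not tested. With no upper limit on UMIs per cell, 168 cells clustered as Purkinje-like, 124 of them from mouse 3, and these held 43 UMIs of Hoxb13, 25 of Hoxb7 and 17 of Hoxb8, of which mouse 3 gave 35, 20 and 14. These cells were left out of the non-lineage cells. With them counted there, an alternative added after seeing the data, the log2 fold changes of granule-lineage over non-lineage cells were 3.04 for Hoxb8, 2.38 for Hoxb7, 1.88 for Hoxb5 and 3.19 for Hoxb4 (edgeR adjusted p = 2.3e-05 to 0.0059), and Hoxb13 was at 0.19 (edgeR adjusted p = 0.88), beside 3.85% of all genes called higher.

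**Figure D4:**
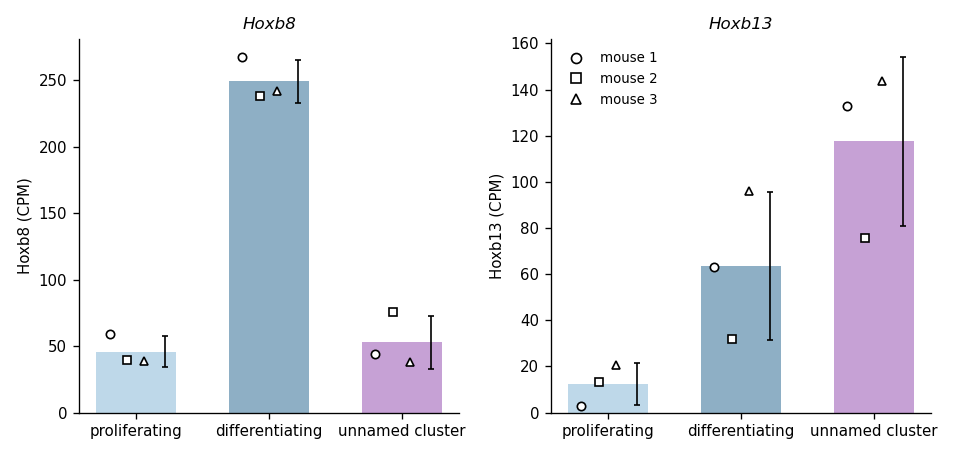
Levels of Hoxb8 (left) and Hoxb13 (right) in CPM (vertical axes, each starting at 0 with its own scale) in proliferating cells, differentiating cells and the unnamed cluster. Bars are means of 3 mice, lines SDs and symbols the mice. Hoxb8 is at 249 CPM in differentiating cells and 52.7 in the unnamed cluster, and Hoxb13 at 63.6 and 118.

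Myoid-like cells held few HoxB transcripts. They gave 10 HoxB UMIs in 6 of 81 cells (7.41%, exact 95% interval 2.77 to 15.4), 5 of them Hoxb7, 2 Hoxb8, 2 Hoxb13 and 1 Hoxb5. The median depth was 1312 UMIs per cell, and after thinning the share was 2.47%, against 1.07% of non-lineage cells and 7.20% of proliferating granule-lineage cells. The thinned share of myoid-like cells came from mouse 1 alone, at 7.14% of 28 cells, and was 0% in mice 2 and 3. Hoxb8 was at 0, 0 and 23.5 CPM in mice 1, 2 and 3, below the granule-lineage cells in every mouse (log2 fold change -3.06, SE 0.75, edgeR adjusted p = 0.0021), with a ratio of summed counts, granule-lineage over myoid-like, of 9.15 (2.50 to 76.1). The value of Hoxb8 in myoid-like cells rests on 2 UMIs of mouse 3, and without mouse 3 the group is at 0. Hoxb7 was at 24.6, 0 and 47.0 CPM and did not pass (log2 fold change -1.48, SE 0.62, edgeR adjusted p = 0.096). With a mouse left out, the log2 fold change of Hoxb7 ran from -2.55 to -1.23. These 2 genes were the HoxB genes that could be tested, and 11.4% of 4569 genes were called lower and 8.16% higher. Hoxb2, Hoxb3, Hoxb4, Hoxb6 and Hoxb9 were at 0 in 149198 UMIs of myoid-like cells, which allows up to 20.1 CPM. With its granule-lineage level taken as measured, Hoxb4 was at least 1.53-fold lower than there.

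Against non-lineage cells, no HoxB gene had enough counts in myoid-like cells to be tested, where 11.1% of 2862 genes were called higher. With no filter on low counts the background was 2.41%, and 8 were tested and 0 called by edgeR, and Hoxb7 was the 1 with an unadjusted p under 0.05 (edgeR adjusted p = 0.20). DESeq2, run on the filtered table, tested none. The ratio of summed counts of Hoxb7 was 7.68 (1.77 to 33.4), from 5 UMIs in each group.

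The HoxB genes did not stand alone among Hox genes. In granule-lineage cells the HoxA genes gave 960 UMIs, HoxB 594 (30.1% of all Hox UMIs), HoxC 356 and HoxD 61. The 5 other Hox genes with the highest level there were Hoxa7 (210 ± 15.4 CPM), Hoxa9 (188 ± 46.9), Hoxc9 (130 ± 31.9), Hoxa5 (86.4 ± 15.9) and Hoxa10 (75.3 ± 22.7). Of 21 other Hox genes 6 were tested between granule-lineage cells and non-lineage cells and 6 were higher, beside 4.05% of all genes, and 5 of 5 tested were higher in differentiating than in proliferating cells, beside 14.5%. As for HoxB, such sparse genes can pass the filter only through the group where they are high, so these counts are a description. Hoxa9 had log2 fold changes of 4.12 (edgeR adjusted p = 3.6e-07) and 2.94 (edgeR adjusted p = 3.5e-07) in these comparisons. In myoid-like cells the order of clusters differed, with 35 UMIs of HoxD genes, 16 of HoxC, 15 of HoxA and 10 of HoxB. By summed mean CPM over the mice HoxD (189) stayed first and HoxB (58.1) last, while HoxA (96.6) stood above HoxC (83.3). Of 5 other Hox genes tested against granule-lineage cells 4 were lower, beside 11.4% of all genes, with Hoxa9 at 19.9 ± 18.1 CPM (log2 fold change -2.71, edgeR adjusted p = 5.6e-04) and Hoxa5 at 0 UMIs, and DESeq2 called 3. By paralog number the highest mean was at 8 in HoxB and 9 in HoxC, and in HoxA Hoxa7 and Hoxa9 lay within each other's spread.

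**Figure D5:**
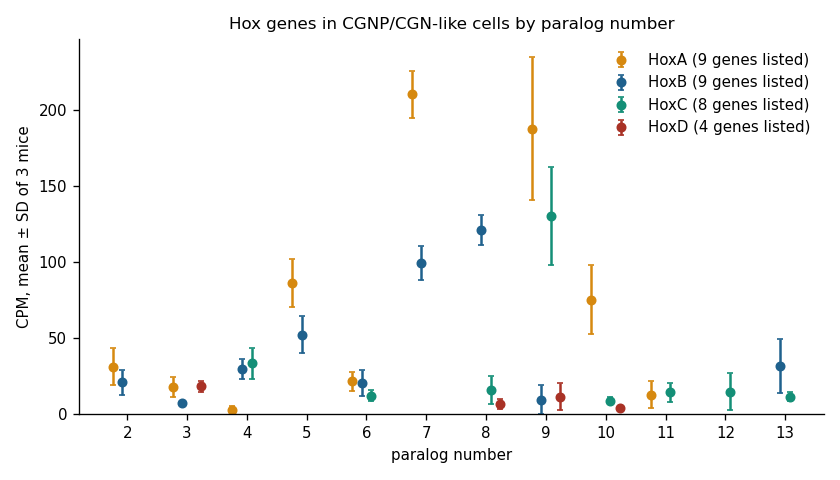
Level of each listed Hox gene in granule-lineage (CGNP/CGN-like) cells in CPM (vertical axis, mean ± SD of 3 mice) by paralog number (horizontal axis), with the 4 clusters in colours. HoxB genes reach 121 CPM at Hoxb8 and drop to 9.58 CPM at Hoxb9, where Hoxa9 and Hoxc9 stand at 188 and 130 CPM.

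Within single differentiating cells, HoxB and HoxA transcripts were found together. A HoxA UMI was present in 71.7% of 237 cells with a HoxB UMI and 43.7% of 279 cells without one, and in 55.3% and 36.4% after thinning, the former higher in 3 of 3 mice. For Hoxb7 and Hoxb8 such sharing could not be seen at this depth. A Hoxb7 UMI was present in 24.2% of 99 cells with a Hoxb8 UMI (16.2 to 33.9) and 14.1% of 417 without, but in 5.08% of 59 (1.06 to 14.1) and 9.63% of 457 after thinning. Deeper cells hold more UMIs of every gene, and these shares compare cells, not mice. The differentiating cells pool clusters with unlike HoxB shares (50.7% and 36.9% of cells), and the shares here were not split by cluster.

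Over 33 sums of cell groups and mice, the genes most like Hoxb8 by Pearson correlation of log2(CPM + 20) were Hoxb7 (r = 0.90), Adcyap1 (0.86), Hoxc9 (0.85), Olig3 (0.85), Hoxb5 (0.84), Hoxa5 (0.84), Mab21l2 (0.84), Mab21l1 (0.83), Slc17a6 (0.83) and Cntn2 (0.82). For Hoxb7 they were Hsd11b2 (0.91), Hoxb8 (0.90), Slc17a6 (0.88), Hoxb5 (0.87), Olig3 (0.87), Hoxc9 (0.86), Hoxa5 (0.85), Adcyap1 (0.84), Hoxa7 (0.83) and Mab21l2 (0.82). The sums of a mouse share a library, and 5911 genes with at least 100 UMIs were compared.

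Genes next to the HoxB cluster and genes that act with or on Hox clusters were read from fixed lists. Of 7 listed genes next to the HoxB cluster 4 were tested and 2 were higher in granule-lineage cells than in non-lineage cells, Igf2bp1 and Cbx1, beside 4.05% of all genes. Between the stages 4 were tested and edgeR and DESeq2 called 0, with 1 at an unadjusted p under 0.05. Igf2bp1, an RNA-binding protein gene at chr11:95957163-96005940 on the minus strand, was at 51.0 ± 6.11 CPM against 4.08 ± 3.57, which rests on 3 UMIs (log2 fold change 4.10, SE 0.65, edgeR adjusted p = 2.3e-04). It was higher still in myoid-like cells, at 173 ± 2.50 CPM (log2 fold change 1.86, SE 0.42, edgeR adjusted p = 9.4e-04), where Hoxb8 was lower. Cbx1 was lower there (log2 fold change -0.74, edgeR adjusted p = 0.039), so that 1 of the 4 neighbours was higher and 1 lower, beside 8.16% and 11.4% of all genes. Cbx1, a heterochromatin protein gene, differed by 0.71 (SE 0.17, edgeR adjusted p = 0.0076) between granule-lineage cells and non-lineage cells. Of 9 listed TALE genes, whose products bind DNA with Hox proteins, 6 were tested and 1 was higher in granule-lineage cells, beside the same 4.05%, Meis1 (132.6 ± 43.5 CPM against 69.7 ± 15.4, log2 fold change 0.86, SE 0.27, edgeR adjusted p = 0.050, just under the threshold of 0.05). DESeq2 called 0 of the 6. Meis1 was also the 1 of 3 tested that was higher in differentiating cells, beside 14.5% of all genes (log2 fold change 1.01, SE 0.29, edgeR adjusted p = 0.014).

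Of 11 listed PRC2 genes, 9 were tested between granule-lineage cells and non-lineage cells, and Eed was the 1 called, lower, beside 8.80% of all genes. In the comparison of stages, where 13.6% of genes were called lower, 6 were tested and 3 were lower in differentiating cells, the histone-binding subunit gene Rbbp7 (log2 fold change -1.45, edgeR adjusted p = 1.7e-04), the methyltransferase gene Ezh2 (-0.73, 0.0084) and Suz12 (-1.07, 0.027). Of 16 listed PRC1 genes 12 and 6 were tested in these comparisons, and edgeR and DESeq2 called 0 in either, with 2 and 0 at an unadjusted p under 0.05. Of 12 listed Hox activators 6 were tested between granule-lineage cells and non-lineage cells and 0 called by edgeR or DESeq2, with 1 at an unadjusted p under 0.05. In the comparison of stages 1 of 3, the histone demethylase gene Kdm6b (log2 fold change 0.96, SE 0.25, edgeR adjusted p = 0.0073), was higher in differentiating cells, beside 14.5% of all genes. In myoid-like cells Ezh2 was lower than in granule-lineage cells (log2 fold change -1.40, SE 0.33, edgeR adjusted p = 0.0012), and it was the only one of 6 PRC2 genes tested that passed, beside 11.4% of all genes called lower.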

How the data were processed

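Single-cell RNA-seq was performed by Drop-seq on papain-dissociated cerebella of 3 Eed cKO mice at P7. The authors deposited raw UMI counts, 1 table of genes by barcodes for each mouse, and the submitters' processing notes name STAR and mm10. The aligner version, the annotation and whether counting used strand are not given in the sources used here. No per-sample column was left unused, and no table of another genotype was analysed here.

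Barcodes with at least 500 UMIs, at least 200 genes, at most 10% mitochondrial UMIs and values within 4 SD above the median of their mouse were kept, which left 2373 of 3481. No doublet caller was run beyond this upper limit. Cells of the 3 mice were clustered with Seurat 5.3.0 (SCTransform, 3000 variable genes, 15 principal components, Louvain resolution 0.8) after 86 genes of the tested lists, all Hox genes among them, were left out. Clusters were named where at least 3 markers of a list led, and names were rebuilt here, so they can differ from the study's.

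Counts were summed per mouse and cell group and compared, 3 sums against 3, with edgeR 4.0.16 (filterByExpr, TMM, quasi-likelihood test, Benjamini-Hochberg over all genes tested, threshold 0.05). Named genes were the 9 HoxB genes, the called members of fixed lists up to 4 a list, the 5 other Hox genes of highest level and the 10 genes most like Hoxb7 and Hoxb8. Hoxc13 and the comparison of Hoxb13 with Hoxb8 were chosen after their values were seen. The members and lists were chosen with earlier results of these data known. Shares carry exact binomial 95% intervals, and 0 counts a limit of 3 counts. Folds against a group at 0 divide the measured level of the other group by this limit and leave out the counting error of that level. The fits were tested on simulated data with known changes.

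Both sums of a comparison come from the same mouse, which pairs them by design. Deviations of same-mouse sums from their group means correlated at r = 0.176 to 0.364 (granule-lineage against non-lineage cells), 0.191 to 0.314 (stages), 0.0880 to 0.205 (myoid-like against granule-lineage cells) and 0.0789 to 0.280 (myoid-like against non-lineage cells). Alternatives were a fit with mouse as a block, DESeq2 1.42.0 and its size factors, no filter on low counts, other clustering resolutions, other limits on UMIs, other cells on the non-lineage side and leaving out each mouse. Each mouse gave 1 library, and summed counts differed between mice by more than sampling noise (chi-square per degree of freedom 2.09 to 2.97).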

Additional observations from a re-analysis of the deposited data

Results flagged for a closer look

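HoxB UMIs were also found in 1056 barcodes that the filters removed for few molecules or genes, which no comparison above uses. They held 32 UMIs of Hoxb8, 25 of Hoxb7, 19 of Hoxb5, 8 of Hoxb2, 8 of Hoxb13, 5 of Hoxb4 and 4 of Hoxb6. Each of these counts is above the limit of 3 that a count of 0 allows. Per total UMIs, Hoxb8 was at 65.1, 129 and 51.5 CPM in these barcodes of mice 1, 2 and 3, and at 76.7, 77.7 and 54.0 CPM in the cells kept, so it was higher in the removed barcodes of mouse 2 and lower in those of mice 1 and 3. The cell types behind these barcodes were not assigned.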

How the results depend on the processing

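Of 128 log2 fold changes of single HoxB genes under the alternatives 121 kept their direction and side of the threshold, and none reversed. Hoxb4 between the stages lost its call in 6 fits, at 1.54 without mouse 1 (edgeR adjusted p = 0.084), 1.01 without mouse 2 (0.19), 1.31 by DESeq2 (adjusted p = 0.14), 1.2 with no filter (0.12), 1.14 with no upper limit on UMIs (0.066) and 1.21 with mouse as a block and no filter (0.058). Hoxb7 in myoid-like against granule-lineage cells gained one with no upper limit (-1.70, edgeR adjusted p = 0.041). The number of HoxB genes called in granule-lineage against non-lineage cells, 4, became 7 of 9 tested with no filter (beside 3.31% of all genes) and 7 of 9 with mouse as a block and no filter (6.39%, an alternative added after seeing the data). It was 2 of 2 tested at resolution 0.4 (6.79%) and 2 of 2 with at least 1000 UMIs per cell (3.32%), where the filter removed the other genes, and 3 of 3 to 6 of 6 without a mouse. Between the stages it was 7 of 9 with no filter (5.27%), 6 of 9 with mouse as a block and no filter (6.33%), which lost Hoxb3 (edgeR adjusted p = 0.073), 2 of 2 with at least 1000 UMIs (12.5%) and 3 to 6 without a mouse, of 3 to 7 tested. In myoid-like against granule-lineage cells, 1 of 2 tested became 2 of 2 with no upper limit (11.7%) and 1 to 2 without a mouse, of 2 to 4 tested. With the unnamed cluster, or with no upper limit the Purkinje-like cells, among non-lineage cells 4 of 5 were called in both (3.96% and 3.85%), without Hoxb13. Against non-neural cells, or against interneurons and their progenitors, 3 of 3 were called (11.3% and 3.90%). Among genes past the filter, mouse as a replicate block left the HoxB counts at 4, 4, 1 and 0 genes, while the calls over all genes went from 974 to 1543 in granule-lineage against non-lineage cells. Resolution 0.4 gave no separate differentiating group, so the stages were not compared there. Of 360 levels 27 and of 415 shares 45 moved by more than the SD between mice. The rest include the values without a mouse, which cannot move a mean of 3 mice by that much. These counts are therefore no measure of stability. Depth limits Hoxb3, Hoxb9 and every HoxB gene in myoid-like cells, which rest on 14, 13 and 10 UMIs.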
